A study of Homo sapiens with 32 samples.

Results

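Expression of 33 genes of glycolysis and the hypoxia response was followed in prostate cancer cells under endoplasmic reticulum (ER) stress and after loss of MOCOS, the molybdenum cofactor sulfurase. The genes were taken by symbol from the authors' table of 29744 genes, and all 33 were found in it. They comprised the oxygen sensing genes HIF1A, EGLN1 and EGLN3, the glucose entry genes SLC2A1, SLC2A3, HK1 and HK2, and the upper glycolytic enzymes GPI, PFKL, PFKM, PFKP, ALDOA, ALDOC and TPI1. They further comprised the regulators PFKFB2, PFKFB3 and PFKFB4, the lower glycolytic enzymes GAPDH, PGK1, PGAM1, ENO1, ENO2 and PKM, and the pyruvate genes LDHA, LDHB and PDK1. The last 7 were the hypoxia targets BNIP3, BNIP3L, CA9, CA12, ADM, ANKRD37 and P4HA1. Of the 33, 31 passed the filter on low counts in each line. CA9 and ADM did not, and were at 0 to 0.147 CPM and 0 to 0.784 CPM (counts scaled to a common library total, not to gene length) over the 32 libraries, where a count of 0 allows 0.11 to 0.428 CPM (3 counts per library).

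Polyadenylated RNA was sequenced from 2 human prostate cancer cell lines: LNCaP, which depends on androgen, and its castration-resistant derivative C4-2B. Each line was given a control siRNA (siCTRL) or siRNA against MOCOS (siMOCOS), and received vehicle or thapsigargin (TG), which blocks the SERCA calcium pump and so causes ER stress. Neither the dose nor the time of TG is stated in the labels. Values of single libraries are given in the order of their numbers, 1 to 4. The 8 groups of line, siRNA and TG held 4 libraries each, called biological replicates without a statement that they came from separate cultures. The siMOCOS groups held 2 siRNAs with 2 libraries each, but the table numbers the siMOCOS columns 1 to 4 without naming the siRNA, so the 4 were treated as 1 group.

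Glycolysis splits glucose into pyruvate. Glucose enters through transporters of the SLC2A family, hexokinase traps it, phosphofructokinase sets the pace, and lactate dehydrogenase turns pyruvate into lactate. PFKFB enzymes make or remove fructose 2,6-bisphosphate, an activator of phosphofructokinase, and PDK1 inhibits pyruvate dehydrogenase, the mitochondrial enzyme complex that turns pyruvate into acetyl-CoA. Many of these genes are known targets of the hypoxia-inducible factor HIF-1, whose alpha subunit (HIF1A) is hydroxylated by the prolyl hydroxylases EGLN1 and EGLN3 and then degraded when oxygen is present. HIF1A is thus controlled largely at the protein, which these data do not measure.

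The 32 libraries held 7507154 to 27088375 counts. MOCOS checked the labels: it was at 29.4 to 33.6 CPM in C4-2B siCTRL against 2.30 to 4.64 in siMOCOS, and at 85.4 to 91.5 against 10.4 to 18.7 with TG. The LNCaP levels were 23.7 to 25.2 against 3.46 to 4.12, and at 90.8 to 101 against 9.75 to 19.1 with TG. HSPA5, the ER chaperone induced by ER stress, rose with TG in siCTRL cells of C4-2B (log2 fold change 1.05 ± 0.17, adjusted p = 8.59e-05) and LNCaP (log2 fold change 1.55 ± 0.13, adjusted p = 2.99e-08). The 10 prostate luminal markers summed to 2149 to 2433 CPM in C4-2B siCTRL and 4675 to 5213 CPM in LNCaP siCTRL. With TG they summed to 1007 to 1142 and 1586 to 1832 CPM, and their part in the results was not tested. The siMOCOS libraries summed to 2962 to 3656 CPM in C4-2B and 4656 to 6256 CPM in LNCaP, and with TG to 1367 to 1586 and 1948 to 2154 CPM. Marker sets of basal, neuroendocrine, fibroblast, endothelial and immune cells summed to at most 21.4 CPM in any library. In 3 libraries (C4-2B siCTRL replicate 1, siCTRL TG replicate 3 and siMOCOS TG column 3) deviations from the group mean correlated with GC content or gene length across genes at 0.4 or more in size. In bulk RNA, fewer cells of a type and less RNA per cell cannot be told apart.

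The promoters of the members were read for the core of the HIF binding site, since many members are known HIF-1 targets. The spellings ACGTG and GCGTG were searched on both strands in the 250 bases before each start in RefSeq (GRCh38.p14). A palindromic CACGTG counts once per strand, so its hits overlap. Of the 33 members, 30 had an entry, with 53 starts in all; BNIP3L, PFKFB2 and SLC2A3 had none. ACGTG stood before 21 of the 53 starts (39.6%), against 18.5% of all 35116 starts. GCGTG stood before 16 of the 53 (30.2%), against 32.2% of all. The 6 promoters shown are those of glycolytic genes that moved together (LDHA, PGK1, ALDOC), of SLC2A1 and BNIP3, which moved with them, and of CA12, which moved the other way. Either spelling is in capitals on whichever strand it was found, read 5′ to 3′ in the direction of the gene.
LDHA: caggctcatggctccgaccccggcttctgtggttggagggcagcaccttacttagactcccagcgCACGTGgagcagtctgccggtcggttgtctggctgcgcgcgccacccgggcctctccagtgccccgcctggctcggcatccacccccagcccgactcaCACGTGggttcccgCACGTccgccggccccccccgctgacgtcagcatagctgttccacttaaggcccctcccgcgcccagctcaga
PGK1: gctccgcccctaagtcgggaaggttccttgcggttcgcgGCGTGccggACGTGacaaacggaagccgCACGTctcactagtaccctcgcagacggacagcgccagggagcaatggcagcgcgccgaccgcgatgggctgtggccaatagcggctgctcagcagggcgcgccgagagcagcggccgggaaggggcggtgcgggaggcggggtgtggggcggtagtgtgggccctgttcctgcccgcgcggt
ALDOC: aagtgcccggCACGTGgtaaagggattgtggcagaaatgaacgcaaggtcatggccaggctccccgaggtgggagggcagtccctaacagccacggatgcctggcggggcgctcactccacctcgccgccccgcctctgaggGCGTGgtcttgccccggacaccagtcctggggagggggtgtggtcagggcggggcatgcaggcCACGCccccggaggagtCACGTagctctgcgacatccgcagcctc
BNIP3: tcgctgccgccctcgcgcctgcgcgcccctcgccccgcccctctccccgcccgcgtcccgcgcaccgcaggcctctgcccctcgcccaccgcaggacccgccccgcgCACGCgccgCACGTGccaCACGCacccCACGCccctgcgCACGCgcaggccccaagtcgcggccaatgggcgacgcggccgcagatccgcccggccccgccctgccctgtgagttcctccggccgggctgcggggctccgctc
SLC2A1: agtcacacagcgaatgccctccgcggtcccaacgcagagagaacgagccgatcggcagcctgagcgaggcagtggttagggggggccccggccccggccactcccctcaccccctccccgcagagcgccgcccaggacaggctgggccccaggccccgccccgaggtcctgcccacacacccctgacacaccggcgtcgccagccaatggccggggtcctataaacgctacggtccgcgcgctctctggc
CA12: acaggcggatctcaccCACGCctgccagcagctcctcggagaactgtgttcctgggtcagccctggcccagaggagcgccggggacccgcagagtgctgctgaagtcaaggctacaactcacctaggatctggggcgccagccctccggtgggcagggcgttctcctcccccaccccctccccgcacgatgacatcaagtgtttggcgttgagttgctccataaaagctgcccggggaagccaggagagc
They lie at chr11:18394313-18394562, plus strand (LDHA), chrX:78103998-78104247, plus strand (PGK1), chr17:28576896-28577145, minus strand (ALDOC), chr10:131981924-131982173, minus strand (BNIP3), chr1:42958869-42959118, minus strand (SLC2A1) and chr15:63381847-63382096, minus strand (CA12). The LDHA stretch held 5 hits (a further LDHA start, not shown, at chr11:18396101-18396350, plus strand, held 1), PGK1 3, ALDOC 5, BNIP3 6 and CA12 1, while SLC2A1 held neither spelling in this window. A match describes the letters and is not evidence of binding.

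In siCTRL cells TG lowered most of the glycolytic chain in both lines. A gene is said to have risen or fallen, or to be called, where edgeR's quasi-likelihood test gave a Benjamini-Hochberg adjusted p under 0.05 over all tested genes; the log2 fold change is given ± SE. In C4-2B 18 of the 31 tested members fell and 2 rose, where 19.3% of all 14127 tested genes fell and 21.2% rose. In LNCaP 22 fell and 3 rose, where 25.1% of 13806 tested genes fell and 24.6% rose. The members' median log2 fold change was -0.58 in C4-2B and -0.65 in LNCaP, against -0.0091 and -0.038 over all tested genes. The same 18 genes fell in both lines, CA12 rose in both, and no member was called in opposite directions. The 17 enzymes of the glycolytic steps, from the hexokinases to the lactate dehydrogenases, summed to 9580 to 11860 CPM in C4-2B siCTRL and 6715 to 7268 CPM with TG. In LNCaP they summed to 8199 to 9842 CPM without TG and 5028 to 5935 CPM with it, so the libraries did not overlap in either line.

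**Figure D1:**
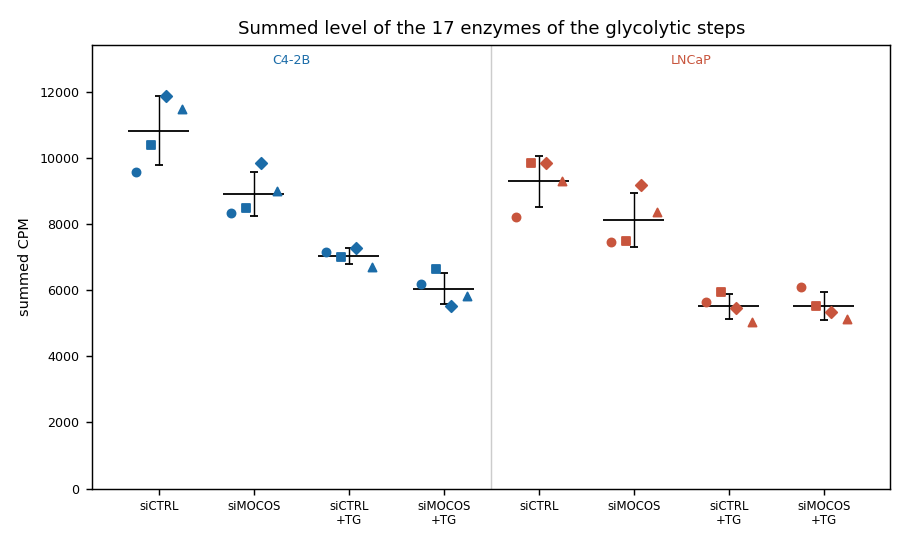
Summed level (CPM, y axis) of the 17 enzymes of the glycolytic steps in each of the 32 libraries, by siRNA and TG (x axis), C4-2B in blue and LNCaP in red. Points are libraries (circle, square, diamond and triangle for numbers 1 to 4), lines the group mean and bars the SD; every library with TG lies below every library without TG of the same line and siRNA.

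Among the oxygen sensing genes, HIF1A itself was not called with TG. Its level in C4-2B was 178, 141, 157 and 144 CPM in the 4 siCTRL libraries and 211, 191, 187 and 189.5 CPM with TG, all above the untreated ones (log2 fold change 0.33 ± 0.14, adjusted p = 0.0781). The LNCaP levels were 291, 278, 273 and 363 CPM without TG and 348, 259, 323 and 343 CPM, with overlap (log2 fold change 0.082 ± 0.13, adjusted p = 0.617). EGLN3, itself induced by HIF, stood at 5.66 ± 0.656 CPM in C4-2B siCTRL and fell to 2.96 ± 0.746 CPM (mean ± SD, n = 4, here and below; log2 fold change -0.95 ± 0.28, adjusted p = 0.012). In LNCaP EGLN3 fell from 5.99 ± 1.69 to 2.47 ± 0.482 CPM (log2 fold change -1.27 ± 0.29, adjusted p = 0.00158). EGLN1 did not follow it: it was at 41.7, 43.3, 43.2 and 50.0 CPM in LNCaP siCTRL and rose to 59.3, 51.8, 60.9 and 58.5 CPM with TG, without overlap (log2 fold change 0.38 ± 0.096, adjusted p = 0.00337). That call was lost with GC and length trends removed (adjusted p = 0.214). Under that setting 22 of the 25 members called in LNCaP kept their call, so EGLN1 was not the only loss. In C4-2B EGLN1 was not called (log2 fold change 0.15 ± 0.13, adjusted p = 0.383).

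At glucose entry, SLC2A1, the widely expressed glucose transporter GLUT1, was at 14.8, 20.5, 23.0 and 22.5 CPM in C4-2B siCTRL and at 8.99, 9.06, 9.17 and 10.7 CPM with TG (log2 fold change -1.09 ± 0.19, adjusted p = 0.000202). In LNCaP SLC2A1 was at 20.2, 24.5, 21.4 and 23.95 CPM and at 11.3, 11.3, 10.3 and 10.8 CPM (log2 fold change -1.04 ± 0.19, adjusted p = 0.000164). All 8 libraries with TG thus lay below the untreated ones. HK2, the inducible hexokinase, was at 90.0, 88.3, 84.9 and 79.4 CPM in C4-2B siCTRL and at 48.2, 42.5, 50.7 and 47.9 CPM with TG (log2 fold change -0.86 ± 0.17, adjusted p = 0.0006). In LNCaP HK2 was at 75.9, 77.6, 78.1 and 79.5 CPM and at 36.0, 35.3, 36.8 and 37.3 CPM (log2 fold change -1.10 ± 0.12, adjusted p = 5.31e-07), again without overlap and with little spread inside each group. HK1, the constitutive hexokinase, was not called in C4-2B (log2 fold change 0.068 ± 0.12, adjusted p = 0.682) or LNCaP (log2 fold change 0.03 ± 0.093, adjusted p = 0.813). SLC2A3, the high-affinity transporter GLUT3, was low, at 0.335, 0.25, 0.913 and 0.933 CPM in C4-2B siCTRL and at 1.59, 1.04, 1.78 and 1.36 CPM with TG. It rose in C4-2B (log2 fold change 1.22 ± 0.46, adjusted p = 0.0427), a call that was lost without siCTRL replicate 1 or 2 or siCTRL TG replicate 1, 3 or 4 (adjusted p 0.0651 to 0.121) and with GC and length trends removed (adjusted p = 0.0932). In LNCaP SLC2A3 was not called (log2 fold change 1.05 ± 0.52, adjusted p = 0.0984).

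**Figure D2:**
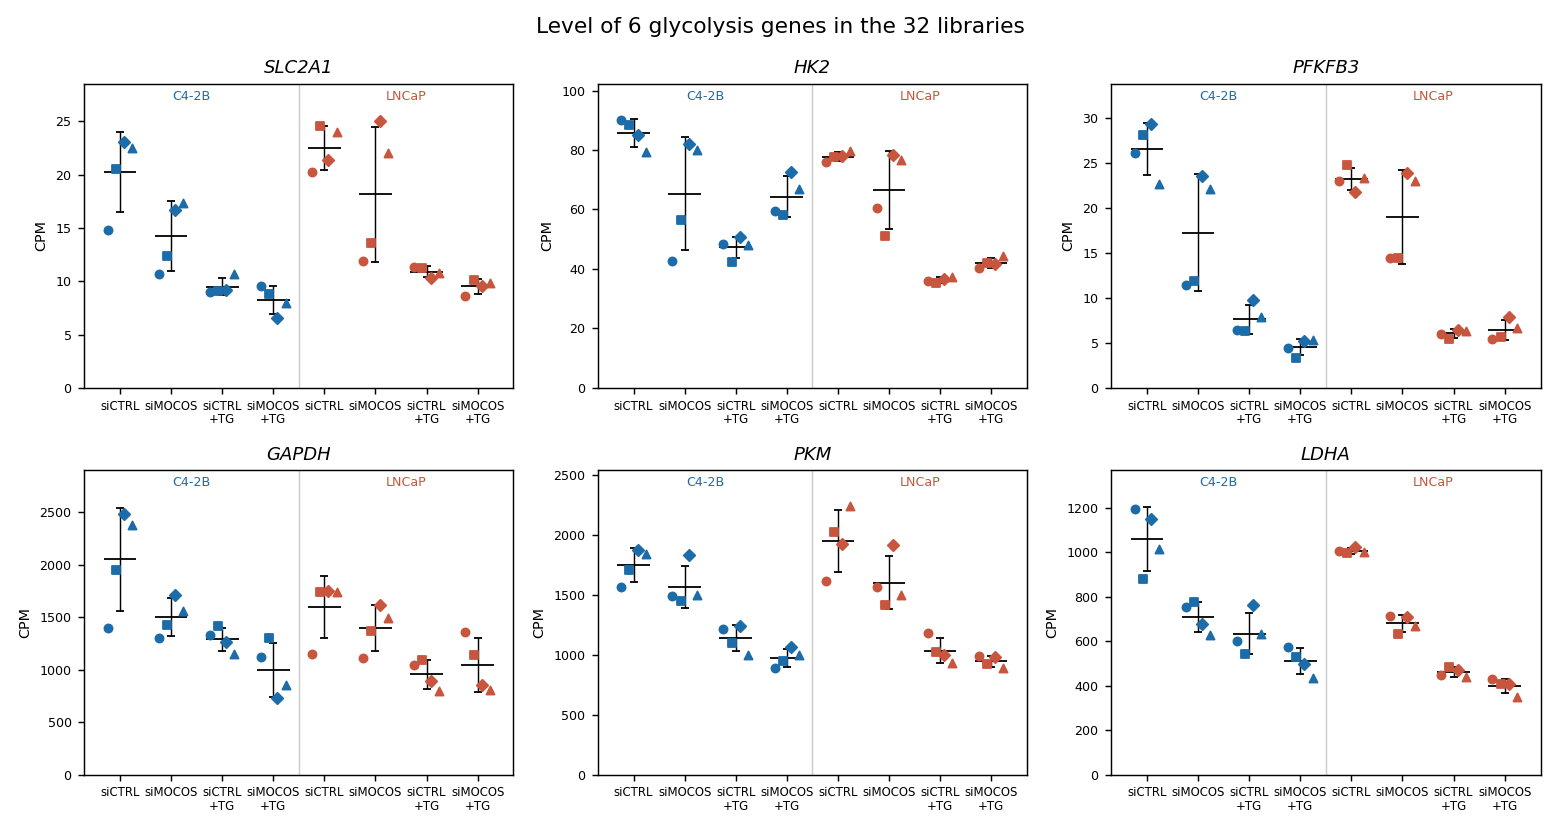
Level (CPM, y axis from 0) of SLC2A1, HK2, PFKFB3, GAPDH, PKM and LDHA in every library by siRNA and TG (x axis), C4-2B in blue and LNCaP in red. Points are libraries (circle, square, diamond and triangle for numbers 1 to 4), lines the group mean and bars the SD; in siCTRL cells the TG libraries lie below the untreated ones in both lines, except for GAPDH in C4-2B, where siCTRL replicate 1 lies among them.

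Of the 7 upper glycolytic enzymes, 5 fell in C4-2B and all 7 in LNCaP. ALDOA, the muscle-type aldolase, went in C4-2B from 543 ± 169 to 283 ± 41.7 CPM (log2 fold change -0.95 ± 0.26, adjusted p = 0.00739). The ALDOA fall in LNCaP was from 372 ± 64.7 to 217 ± 33.0 CPM (log2 fold change -0.77 ± 0.18, adjusted p = 0.00158). ALDOC, the brain-type aldolase, went from 33.6, 19.5, 56.8 and 49.3 CPM to 19.6, 20.02, 17.8 and 19.3 CPM in C4-2B, where siCTRL replicate 2 lay among the TG libraries (log2 fold change -1.05 ± 0.25, adjusted p = 0.00301). The ALDOC level in LNCaP went from 57.1 ± 10.48 to 28.5 ± 3.404 CPM (log2 fold change -0.998 ± 0.15, adjusted p = 2.66e-05). The isomerases GPI and TPI1 fell too, with log2 fold changes of -0.63 and -0.68 in C4-2B and -0.68 and -0.64 in LNCaP. Among the phosphofructokinase genes, PFKM fell in both lines (-0.41 and -0.60), though in C4-2B the call was lost without the 3 libraries that stand apart (adjusted p = 0.0731). PFKP was at 21.3, 30.3, 38.0 and 32.3 CPM in C4-2B siCTRL and 16.8, 16.8, 21.1 and 19.6 CPM with TG, without overlap, but was not called (log2 fold change -0.72 ± 0.41, adjusted p = 0.174). PFKL (log2 fold change -0.42 ± 0.17, adjusted p = 0.0495) and PFKP (log2 fold change -0.65 ± 0.25, adjusted p = 0.037) fell in LNCaP with an adjusted p near the threshold. PFKL lost its call with DESeq2 (adjusted p = 0.0548), with limma voom and with RLE factors, and without siCTRL replicate 1, 2 or 3 or siCTRL TG replicate 1, 3 or 4 (adjusted p 0.077 to 0.167). PFKP lost its call without siCTRL replicate 1, 2 or 3 or siCTRL TG replicate 1, 3 or 4 (adjusted p 0.0624 to 0.113).

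PFKFB3, the isoform with the strongest kinase activity, had the largest fall of any member in both lines. PFKFB3 was at 26.1, 28.1, 29.3 and 22.7 CPM in C4-2B siCTRL and at 6.44, 6.30, 9.81 and 7.84 CPM with TG (log2 fold change -1.81 ± 0.24, adjusted p = 1.59e-05). In LNCaP PFKFB3 was at 23.0, 24.8, 21.7 and 23.3 CPM and at 6.04, 5.41, 6.47 and 6.36 CPM (log2 fold change -1.93 ± 0.18, adjusted p = 1.04e-07). The highest TG library of either line lay below the lowest untreated library. PFKFB4 fell in LNCaP, from 11.9 ± 1.47 to 5.96 ± 0.47 CPM (log2 fold change -0.99 ± 0.20, adjusted p = 0.000447), and was not called in C4-2B (log2 fold change -0.63 ± 0.25, adjusted p = 0.0535). PFKFB2 went the other way in LNCaP: it was at 67.7, 66.4, 64.1 and 64.0 CPM and rose to 89.7, 82.0, 90.5 and 100.5 CPM (log2 fold change 0.47 ± 0.097, adjusted p = 0.000594). In C4-2B PFKFB2 was not called (log2 fold change 0.38 ± 0.19, adjusted p = 0.116), with siCTRL TG replicate 3 at 232 CPM and the other TG libraries inside the untreated range.

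Of the 6 lower glycolytic enzymes, 5 fell in C4-2B and all 6 in LNCaP. GAPDH was at 1401, 1949, 2481 and 2383 CPM in C4-2B siCTRL and at 1332, 1415, 1262 and 1152 CPM with TG, where TG replicate 2 exceeded siCTRL replicate 1 (log2 fold change -0.67 ± 0.19, adjusted p = 0.0084). In LNCaP GAPDH was at 1149, 1737, 1752 and 1744 CPM and at 1045, 1089.6, 890.0 and 799 CPM, without overlap (log2 fold change -0.73 ± 0.17, adjusted p = 0.00198). GAPDH is widely used as a constant reference gene; here it fell in siCTRL cells of both lines. PGK1, the first ATP-yielding step, was at 723, 512, 716 and 659 CPM and at 478, 453, 448 and 447 CPM with TG in C4-2B (log2 fold change -0.52 ± 0.12, adjusted p = 0.00212), and at 606, 658, 668 and 594 CPM and at 391, 429, 403 and 377 CPM in LNCaP (log2 fold change -0.65 ± 0.072, adjusted p = 7.97e-07). PGAM1, the phosphoglycerate mutase, had the largest fold of the 6 in C4-2B, going from 231 ± 24.5 to 118 ± 4.33 CPM (log2 fold change -0.97 ± 0.13, adjusted p = 2.47e-05). The PGAM1 fall in LNCaP was from 223 ± 15.02 to 123 ± 9.58 CPM (log2 fold change -0.85 ± 0.10, adjusted p = 1.64e-06). PKM, pyruvate kinase, was at 1567, 1709.6, 1875 and 1841 CPM and at 1212, 1102, 1238 and 999.2 CPM in C4-2B (log2 fold change -0.62 ± 0.11, adjusted p = 0.000226). In LNCaP PKM was at 1619, 2026, 1925 and 2239.9 CPM and at 1178, 1024, 998.8 and 933 CPM (log2 fold change -0.91 ± 0.11, adjusted p = 2.87e-06), so the TG libraries lay below the untreated ones in both lines. ENO1, the main enolase of most tissues, fell in C4-2B (log2 fold change -0.44 ± 0.11, adjusted p = 0.00503) and in LNCaP (log2 fold change -0.55 ± 0.10, adjusted p = 0.000223). ENO2, the neuronal enolase, fell in LNCaP from 12.9 ± 0.951 to 6.93 ± 0.689 CPM (log2 fold change -0.89 ± 0.13, adjusted p = 2.63e-05) and was not called in C4-2B, where it stood at 2.72 ± 0.288 CPM without TG (log2 fold change -0.51 ± 0.39, adjusted p = 0.306).

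At the end of the chain, LDHA, the lactate-forming subunit, was at 1194, 878, 1148 and 1014 CPM in C4-2B siCTRL and at 602, 541, 761 and 632 CPM with TG (log2 fold change -0.74 ± 0.13, adjusted p = 0.000238). In LNCaP LDHA was at 1004, 995, 1025 and 1002 CPM and at 446, 486, 473 and 438 CPM (log2 fold change -1.12 ± 0.078, adjusted p = 3.32e-09). The untreated and TG libraries did not overlap in either line, and the 4 LNCaP libraries of each kind lay close together. LDHB, the subunit that favours pyruvate, fell as well, in C4-2B from 959.6 ± 116 to 522 ± 27.3 CPM (log2 fold change -0.88 ± 0.11, adjusted p = 6.34e-06). The LDHB fall in LNCaP was from 747 ± 66.8 to 431 ± 69.0 CPM (log2 fold change -0.79 ± 0.11, adjusted p = 9.36e-06). PDK1, a classic HIF target, did not follow: it was at 43.6, 40.4, 41.9 and 37.1 CPM in C4-2B siCTRL and at 48.2, 45.7, 51.6 and 46.8 CPM with TG, slightly above without being called (log2 fold change 0.24 ± 0.23, adjusted p = 0.432). In LNCaP PDK1 was not called either (log2 fold change 0.071 ± 0.18, adjusted p = 0.771).

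The hypoxia targets outside glycolysis split. CA12, a membrane carbonic anhydrase, was at 23.8, 22.6, 18.2 and 16.4 CPM in C4-2B siCTRL and at 60.8, 53.5, 56.6 and 65.8 CPM with TG (log2 fold change 1.54 ± 0.25, adjusted p = 0.000117). In LNCaP CA12 was at 28.9, 26.5, 24.3 and 28.0 CPM and at 87.2, 81.7, 89.1 and 83.5 CPM (log2 fold change 1.67 ± 0.23, adjusted p = 1.27e-05), so every TG library lay above every untreated one. BNIP3 and BNIP3L, receptors for mitophagy, fell in both lines. BNIP3 went in C4-2B from 89.5 ± 14.99 to 59.8 ± 4.15 CPM (log2 fold change -0.58 ± 0.12, adjusted p = 0.000831). The BNIP3 fall in LNCaP was from 156 ± 7.48 to 99.8 ± 13.4 CPM (log2 fold change -0.64 ± 0.11, adjusted p = 9.96e-05). BNIP3L had log2 fold changes of -0.51 in C4-2B and -0.61 in LNCaP. P4HA1, a collagen prolyl hydroxylase subunit, was not called in C4-2B (log2 fold change -0.20 ± 0.30, adjusted p = 0.607) or LNCaP (log2 fold change -0.51 ± 0.29, adjusted p = 0.153). ANKRD37 was not called in C4-2B (log2 fold change 0.22 ± 0.40, adjusted p = 0.683) or LNCaP (log2 fold change -0.32 ± 0.40, adjusted p = 0.526) either. The difference between the lines in the TG response was called for 0 of the 31 members with edgeR and 0 with DESeq2 or limma voom, where 0.417% of 14628 genes were called higher and 0.431% lower in LNCaP. With edgeR 1 member had an unadjusted p under 0.05, LDHA, with a difference of -0.39 ± 0.15 (adjusted p = 0.313).

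**Figure D3:**
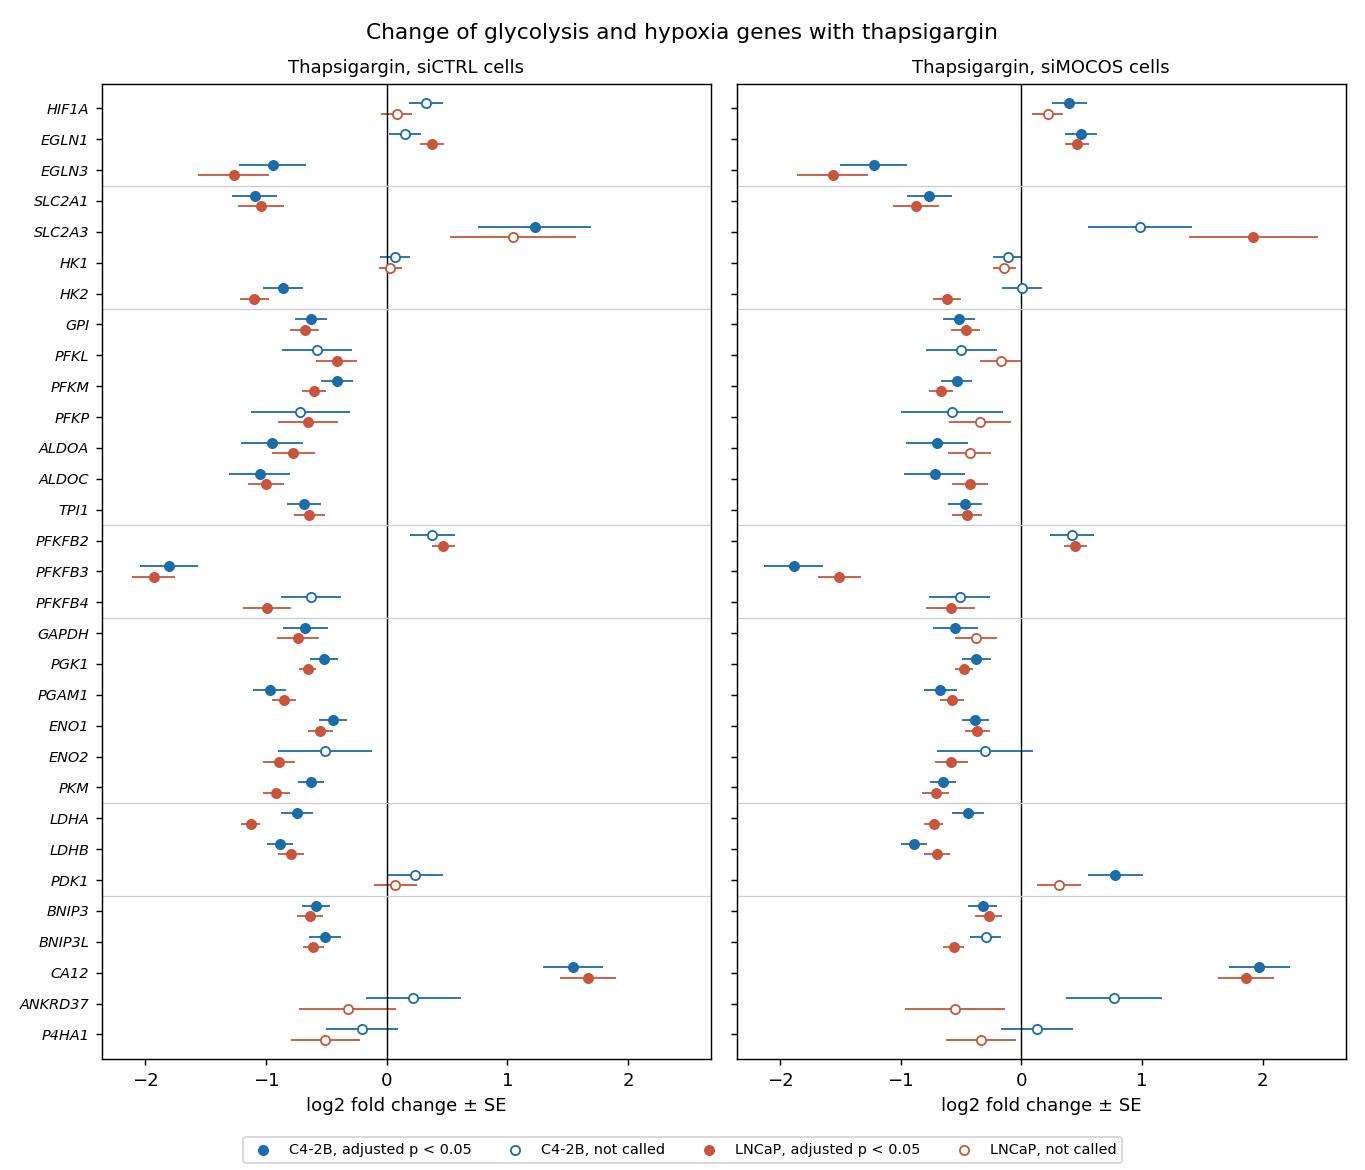
Log2 fold change with TG (x axis, ± SE) of the 31 tested members (y axis, ordered and ruled off by role) in siCTRL cells (left) and siMOCOS cells (right), C4-2B in blue and LNCaP in red. Filled points have an edgeR adjusted p under 0.05; all upper and lower glycolytic enzymes, LDHA and LDHB lie to the left of 0 in all 4 comparisons, while CA12 lies to the right.

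MOCOS knockdown without TG lowered fewer members and raised none. In C4-2B 5 of 31 fell, where 8.14% of tested genes fell and 9.09% rose. In LNCaP 6 fell, where 9.73% fell and 6% rose. The members' median log2 fold change was -0.34 in C4-2B and -0.25 in LNCaP, against 0.0028 and -0.022 over all tested genes. EGLN1, PFKFB4 and LDHA fell in both lines, PFKP and ENO1 in C4-2B, and PGK1, ENO2 and PDK1 in LNCaP. The count was 8 in C4-2B without siCTRL replicate 1. In LNCaP it was 3 without siCTRL replicate 3 or siMOCOS column 2, and 10 without siMOCOS column 3.

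LDHA was at 754, 776, 679 and 626 CPM in the C4-2B siMOCOS columns 1 to 4, below all siCTRL libraries (log2 fold change -0.59 ± 0.13, adjusted p = 0.00424). In LNCaP LDHA was at 712, 632, 708 and 669.9 CPM, also below all siCTRL libraries (log2 fold change -0.59 ± 0.078, adjusted p = 5.85e-05). EGLN1 was at 38.6, 38.6, 32.4 and 32.6 CPM in C4-2B siMOCOS, against at least 51.0 CPM in siCTRL (log2 fold change -0.61 ± 0.13, adjusted p = 0.00424). In LNCaP EGLN1 was at 34.1, 30.2, 33.4 and 38.0 CPM, against at least 41.7 CPM (log2 fold change -0.42 ± 0.097, adjusted p = 0.00745), a call lost with GC and length trends removed (adjusted p = 0.0806). PFKFB4 was at 5.11, 7.48, 11.4 and 9.37 CPM in C4-2B siMOCOS and at 13.1, 12.3, 24.1 and 20.03 CPM in siCTRL (log2 fold change -1.07 ± 0.25, adjusted p = 0.0068). In LNCaP PFKFB4 was at 6.53, 5.96, 8.90 and 9.42 CPM in siMOCOS and at 11.8, 11.002, 14.0 and 10.7 CPM in siCTRL (log2 fold change -0.66 ± 0.20, adjusted p = 0.0325), a call lost without siCTRL replicate 1 or 3 or siMOCOS column 1 or 2 (adjusted p 0.0633 to 0.112). For these 3 genes the siRNA groups did not overlap in either line.

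PFKP, the platelet phosphofructokinase, showed the largest called fall in C4-2B, with siMOCOS columns that differed widely. PFKP was at 3.65, 4.60, 19.6 and 13.7 CPM in C4-2B siMOCOS, against 21.3, 30.3, 38.0 and 32.3 CPM in siCTRL (log2 fold change -1.56 ± 0.42, adjusted p = 0.0158), and the call was lost without siMOCOS column 2 (adjusted p = 0.0505). In LNCaP PFKP was at 14.7, 17.1, 41.3 and 31.7 CPM in siMOCOS, where column 3 lay inside the siCTRL range, and was not called (log2 fold change -0.64 ± 0.25, adjusted p = 0.0956). ENO1 in C4-2B was at 977, 989.8, 1174 and 1062 CPM in siMOCOS and at 1194, 1502, 1564 and 1519 CPM in siCTRL, without overlap (log2 fold change -0.47 ± 0.11, adjusted p = 0.00801). PDK1 in LNCaP was at 34.3, 25.2, 48.6 and 37.3 CPM in siMOCOS, against 61.9, 56.1, 60.4 and 65.8 CPM in siCTRL (log2 fold change -0.77 ± 0.18, adjusted p = 0.0083). In C4-2B PDK1 was at 20.4, 21.7, 32.5 and 31.6 CPM, also below all siCTRL libraries but not called (log2 fold change -0.63 ± 0.23, adjusted p = 0.07). In LNCaP PGK1 was at 537, 511, 545 and 539 CPM in siMOCOS (log2 fold change -0.27 ± 0.072, adjusted p = 0.0179) and ENO2 at 9.30, 9.61, 10.97 and 8.996 CPM (log2 fold change -0.43 ± 0.13, adjusted p = 0.0381), all below siCTRL. PGK1 lost the call without siCTRL replicate 3 or siMOCOS column 2 (adjusted p 0.0573 to 0.0594), and with GC and length trends removed (adjusted p = 0.302). ENO2 lost it without siCTRL replicate 1, 2, 3 or 4 or siMOCOS column 1, 2 or 4 (adjusted p 0.0517 to 0.095).

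P4HA1 shows how the siMOCOS columns differed. In C4-2B it was at 41.8, 51.0, 85.6 and 87.1 CPM in columns 1 to 4 and in LNCaP at 67.5, 53.7, 104 and 97.5 CPM, against 106 ± 9.94 and 127 ± 5.10 CPM in siCTRL. All siMOCOS columns were below siCTRL, with columns 1 and 2 lowest. P4HA1 was not called in C4-2B (log2 fold change -0.69 ± 0.30, adjusted p = 0.125) or LNCaP (log2 fold change -0.68 ± 0.29, adjusted p = 0.119). HK2 was at 42.7, 56.4, 82.2 and 80.04 CPM in C4-2B and 60.4, 51.2, 78.3 and 76.7 CPM in LNCaP siMOCOS, with log2 fold changes of -0.40 ± 0.17, adjusted p = 0.111, and -0.25 ± 0.12, adjusted p = 0.157. PFKFB3 was at 11.4, 11.9, 23.6 and 22.1 CPM in C4-2B and 14.4, 14.4, 23.9 and 23.0 CPM in LNCaP siMOCOS, with log2 fold changes of -0.63 ± 0.23, adjusted p = 0.0703, and -0.32 ± 0.17, adjusted p = 0.211. For both genes columns 1 and 2 lay below all siCTRL libraries in each line. Columns 3 and 4 lay within the siCTRL range, except for PFKFB3 in C4-2B column 4, just below it. The part of the siRNA in these differences was not tested, since no column names it.

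The remaining named members were not called after knockdown without TG. HK1 was at 392, 402, 482 and 471 CPM in C4-2B siMOCOS and at 295, 264, 310 and 317 CPM in LNCaP siMOCOS. In each line these lay above all siCTRL libraries, at most 369 CPM in C4-2B and 260 CPM in LNCaP, without being called. HIF1A had log2 fold changes of 0.045 ± 0.14 (adjusted p = 0.868) in C4-2B and -0.35 ± 0.13 (adjusted p = 0.0653) in LNCaP, and SLC2A1 of -0.51 ± 0.19 (adjusted p = 0.0678) and -0.34 ± 0.19 (adjusted p = 0.221). GAPDH stood at -0.46 ± 0.19 (adjusted p = 0.101) in C4-2B and -0.21 ± 0.17 (adjusted p = 0.443) in LNCaP, and PKM at -0.17 ± 0.11 (adjusted p = 0.323) and -0.31 ± 0.11 (adjusted p = 0.0697). PGK1 in C4-2B had a log2 fold change of -0.03 ± 0.12 (adjusted p = 0.895). The difference between the lines in the knockdown response without TG was called for 0 of 31 members with edgeR and 0 with DESeq2 or limma voom, with 0 at an unadjusted p under 0.05 in edgeR. Of all genes, 0.0205% were called higher and 0.137% lower in LNCaP for this difference.

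**Figure D4:**
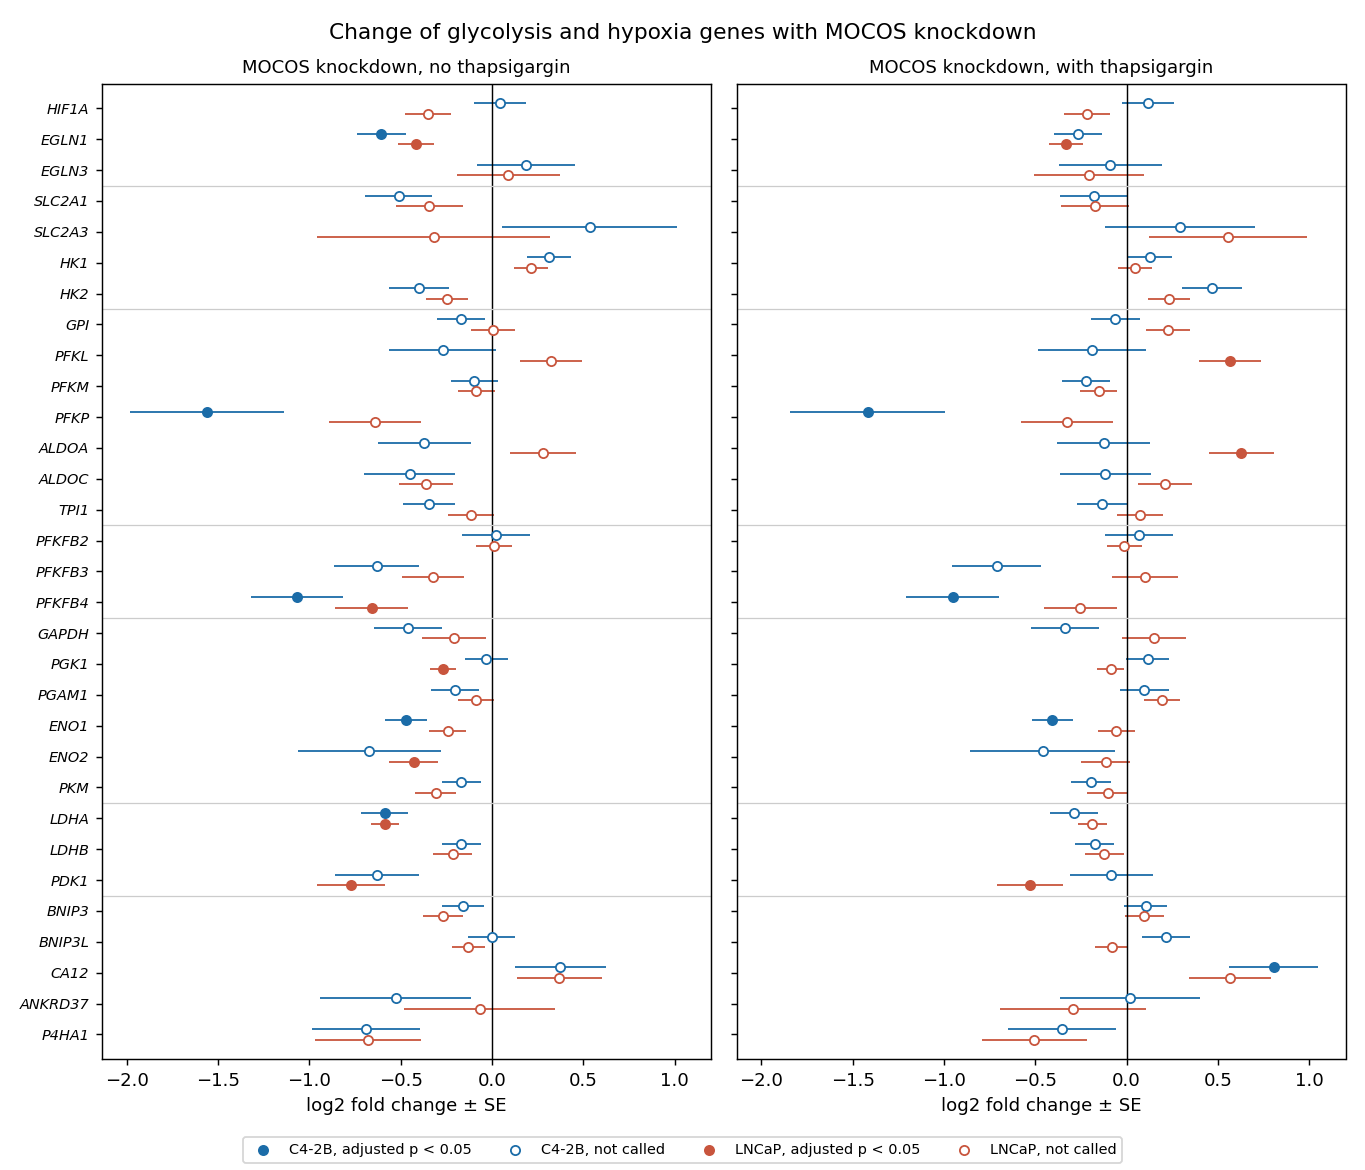
Log2 fold change with MOCOS knockdown (x axis, ± SE) of the 31 tested members (y axis, ordered and ruled off by role) without TG (left) and with TG (right), C4-2B in blue and LNCaP in red. Filled points have an edgeR adjusted p under 0.05; without TG the called members all lie to the left of 0, and with TG ALDOA and PFKL in LNCaP and CA12 in C4-2B lie to the right.

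With TG present, knockdown lowered 3 members in C4-2B and raised 1, where 7.6% of tested genes fell and 9.21% rose. In LNCaP it lowered 2 and raised 2, where 10.2% fell and 11.7% rose. In both lines these counts were near or below the shares of all tested genes. The members' median was -0.12 in C4-2B and -0.082 in LNCaP, against 0.014 and 0.012 over all tested genes. PFKP in C4-2B was at 3.46, 5.32, 7.35 and 11.1 CPM in siMOCOS with TG and at 16.8, 16.8, 21.1 and 19.6 CPM in siCTRL with TG (log2 fold change -1.42 ± 0.42, adjusted p = 0.0282). PFKFB4 was at 4.25, 5.13, 5.68 and 7.73 CPM and at 11.1, 10.96, 12.4 and 10.7 CPM (log2 fold change -0.95 ± 0.25, adjusted p = 0.0147), and ENO1 at 793, 869, 688 and 801 CPM and at 1040.5, 1015, 1162 and 1042 CPM (log2 fold change -0.41 ± 0.11, adjusted p = 0.0202). For these 3 genes every siMOCOS library lay below every siCTRL library. CA12 was at 134, 125, 75.3 and 71.1 CPM in the C4-2B siMOCOS columns with TG, all above siCTRL with TG, with columns 1 and 2 highest (log2 fold change 0.80 ± 0.24, adjusted p = 0.0292). In LNCaP CA12 showed the same order of columns, 149.7, 177, 86.1 and 83.9 CPM, but columns 3 and 4 lay within the siCTRL range and it was not called (log2 fold change 0.56 ± 0.22, adjusted p = 0.0788). All 4 calls in C4-2B were lost when single libraries were left out: PFKP lost its call without siCTRL TG replicate 3 or 4 or siMOCOS TG column 1 or 2 (adjusted p 0.0582 to 0.0891), PFKFB4 without siMOCOS TG column 1 (adjusted p = 0.0545), ENO1 without siCTRL TG replicate 3 or siMOCOS TG column 3 (adjusted p 0.0535 to 0.0605) and CA12 without siCTRL TG replicate 1, 2 or 3 or siMOCOS TG column 1 or 2 (adjusted p 0.0582 to 0.12). The count was 1 without siCTRL TG replicate 3, 1 without siMOCOS TG column 1 and 2 without column 2. Without the 3 libraries that stand apart 1 member rose and 0 fell, so PFKP, PFKFB4 and ENO1 were not called there.

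In LNCaP with TG, ALDOA was at 412, 328, 278 and 300.4 CPM in siMOCOS, all above the 225, 259, 199 and 184 CPM of siCTRL (log2 fold change 0.63 ± 0.18, adjusted p = 0.0189). PFKL, the liver-type phosphofructokinase, was at 50.1, 42.7, 39.0 and 50.5 CPM in siMOCOS and at 29.3, 37.6, 28.96 and 29.1 CPM in siCTRL, also without overlap (log2 fold change 0.57 ± 0.17, adjusted p = 0.023). With GC and length trends removed PFKL was no longer called (adjusted p = 0.922). In 1 fit of all 32 libraries 0 members rose, so neither ALDOA nor PFKL was called there. EGLN1 was at 43.5, 44.3, 46.9 and 45.4 CPM in siMOCOS, below the 59.3, 51.8, 60.9 and 58.5 CPM of siCTRL (log2 fold change -0.33 ± 0.095, adjusted p = 0.0195), and was not called with those trends removed (adjusted p = 0.2). PDK1 was at 32.2, 36.1, 58.3 and 47.8 CPM in siMOCOS and at 58.0, 61.7, 66.6 and 69.6 CPM in siCTRL, where column 3 reached the siCTRL range (log2 fold change -0.53 ± 0.18, adjusted p = 0.0429). With GC and length trends removed 0 members fell, so PDK1 was not called under that setting either. ALDOA lost its call without siCTRL TG replicate 3 or 4 or siMOCOS TG column 1 (adjusted p 0.0697 to 0.0896), PFKL without siCTRL TG replicate 1, 3 or 4 or siMOCOS TG column 1 or 4 (adjusted p 0.0641 to 0.0841) and PDK1 without siCTRL TG replicate 3 or 4 or siMOCOS TG column 1 or 2 (adjusted p 0.074 to 0.106). The count was 1 without siCTRL TG replicate 3, 1 without replicate 4 and 2 without siMOCOS TG column 1. HIF1A, SLC2A1, HK2, GAPDH, PGK1, PKM and LDHA were not called with TG present, with log2 fold changes of 0.12, -0.18, 0.47, -0.34, 0.11, -0.20 and -0.29 in C4-2B. In LNCaP their log2 fold changes were -0.22, -0.17, 0.23, 0.15, -0.088, -0.10 and -0.19.

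The difference between the lines in the knockdown response with TG was called for 0 of 31 members with edgeR and 0 with DESeq2 or limma voom, with 6 at an unadjusted p under 0.05 in edgeR (PFKL, PFKP, ALDOA, PFKFB3, PFKFB4 and ENO1). Of all genes, 0.191% were called higher and 0.239% lower in LNCaP for it.

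**Figure D5:**
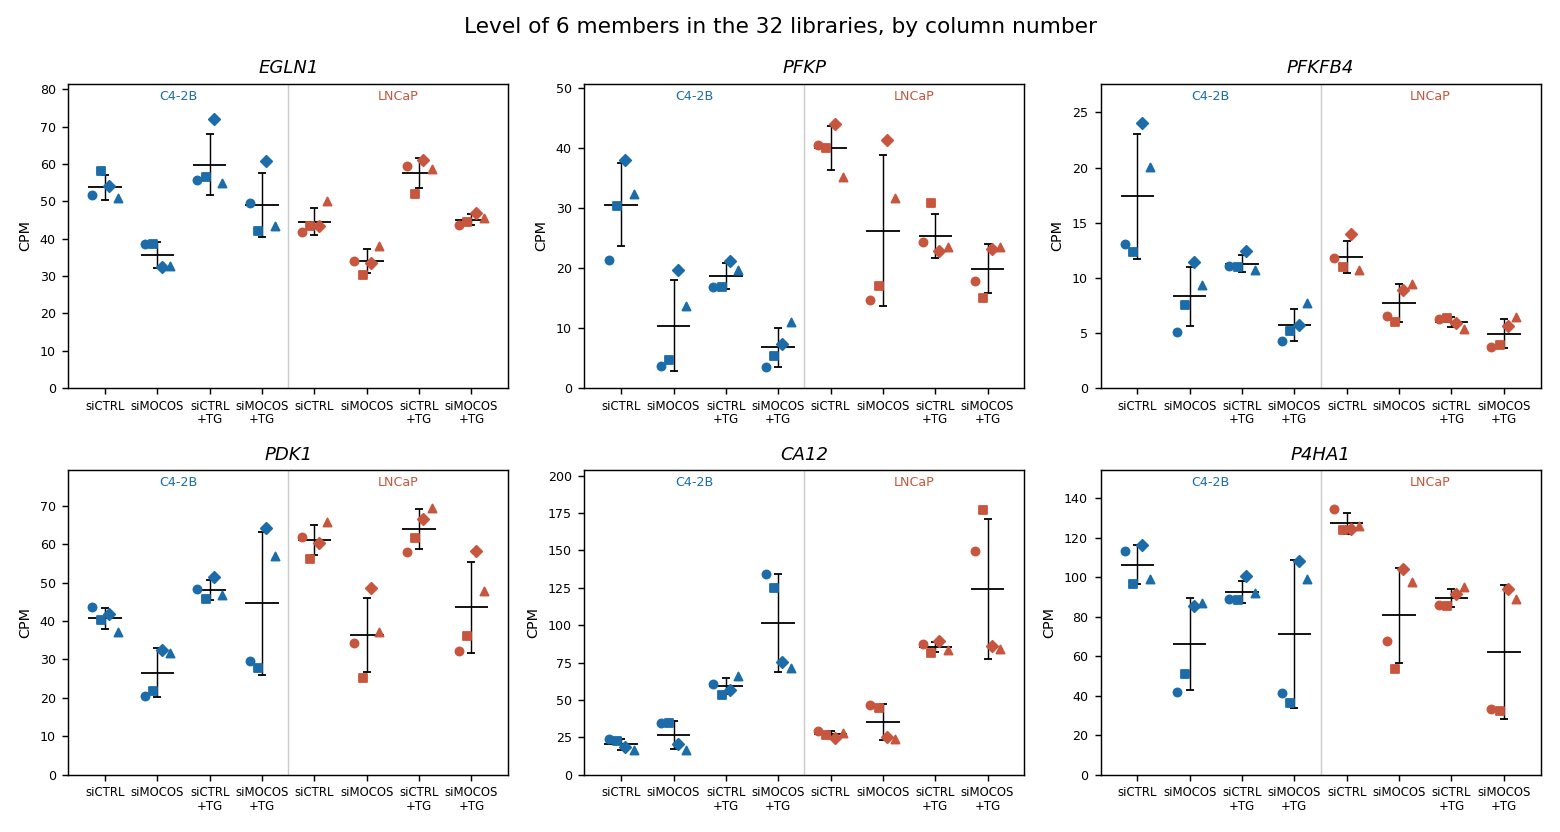
Level (CPM, y axis from 0) of EGLN1, PFKP, PFKFB4, PDK1, CA12 and P4HA1 in every library by siRNA and TG (x axis), C4-2B in blue and LNCaP in red. Points are libraries (circle, square, diamond and triangle for replicate or column numbers 1 to 4), lines the group mean and bars the SD; in the siMOCOS groups P4HA1, PDK1 and PFKP are lower and CA12 higher in columns 1 and 2 than in 3 and 4.

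Most glycolytic enzymes also fell with TG in siMOCOS cells. In C4-2B 16 of 31 fell and 4 rose, where 17.2% of tested genes fell and 20.7% rose. In LNCaP 18 fell and 4 rose, where 21.9% fell and 25.1% rose. The members' median was -0.44 in C4-2B and -0.45 in LNCaP, against -0.025 and -0.0052 over all tested genes. PFKFB3 went in C4-2B from 17.2 ± 6.48 to 4.56 ± 0.926 CPM (log2 fold change -1.88 ± 0.24, adjusted p = 1.23e-05). The PFKFB3 fall in LNCaP was from 18.9 ± 5.22 to 6.41 ± 1.12 CPM (log2 fold change -1.51 ± 0.18, adjusted p = 1.79e-06). LDHA went in C4-2B from 709 ± 68.9 to 509.5 ± 58.8 CPM (log2 fold change -0.44 ± 0.13, adjusted p = 0.0122), and the LNCaP means were 680.4 ± 37.3 and 398 ± 33.2 CPM (log2 fold change -0.72 ± 0.078, adjusted p = 6.26e-07). The log2 fold changes of other called members in C4-2B were -1.22 for EGLN3, -0.89 for LDHB, -0.76 for SLC2A1, -0.72 for ALDOC, -0.70 for ALDOA, -0.65 for PKM and -0.37 for PGK1. In LNCaP they were -1.56 for EGLN3, -0.87 for SLC2A1, -0.71 for PKM, -0.70 for LDHB and -0.48 for PGK1. GAPDH fell in C4-2B (log2 fold change -0.55 ± 0.19, adjusted p = 0.0276) and was not called in LNCaP (log2 fold change -0.38 ± 0.17, adjusted p = 0.0852). HK2 fell in LNCaP (log2 fold change -0.62 ± 0.12, adjusted p = 0.000268) and stood at 42.7, 56.4, 82.2 and 80.04 CPM without and 59.4, 58.0, 72.7 and 67.0 CPM with TG in C4-2B, with overlap (log2 fold change 0.0074 ± 0.17, adjusted p = 0.977).

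The members that rose in siMOCOS cells were CA12 and EGLN1 in both lines, HIF1A and PDK1 in C4-2B, and SLC2A3 and PFKFB2 in LNCaP. CA12 rose by 1.97 ± 0.25 (adjusted p = 9.99e-06) on the log2 scale in C4-2B and by 1.86 ± 0.23 (adjusted p = 3.99e-06) in LNCaP, and EGLN1 by 0.49 ± 0.13 (adjusted p = 0.00764) and 0.46 ± 0.097 (adjusted p = 0.000754). PFKFB2 in LNCaP rose by 0.45 ± 0.097 (adjusted p = 0.000999). EGLN1 lost its call with GC and length trends removed in both lines (adjusted p = 0.0925 and 0.0596). In C4-2B 16 of the 20 called members kept their call under that setting. Only 2 members rose under it, so CA12, HIF1A and PDK1 did not all keep their calls. HIF1A was at 196, 189, 134 and 125 CPM in C4-2B siMOCOS and at 225, 185, 234 and 186 CPM with TG, with overlap (log2 fold change 0.40 ± 0.14, adjusted p = 0.0357), and lost its call without siMOCOS TG column 1 or 3 or siMOCOS column 3 or 4 (adjusted p 0.0947 to 0.127). PDK1 was at 20.4, 21.7, 32.5 and 31.6 CPM and at 29.6, 27.7, 64.2 and 56.9 CPM, where only columns 3 and 4 with TG lay above all untreated ones (log2 fold change 0.78 ± 0.23, adjusted p = 0.0129). PDK1 lost its call without siMOCOS TG column 3 (adjusted p = 0.0602). SLC2A3 in LNCaP was at 0.497, 0.0745, 0.297 and 0 CPM and at 1.18, 1.14, 0.905 and 0.371 CPM, with overlap. These levels rest on 0 to 7 counts per library without TG and 8 to 31 with it. In LNCaP SLC2A3 passed the low-count filter only through its TG libraries and was not tested at a minimum of 1 CPM in 4 libraries, so its call (adjusted p = 0.00572 with edgeR) and its place among the 4 rises support nothing. HIF1A in LNCaP (0.22 ± 0.13, adjusted p = 0.167) and PDK1 in LNCaP (0.31 ± 0.18, adjusted p = 0.175) were not called. Among the falls in C4-2B, GAPDH lost its call without siMOCOS TG column 3 or 4 or siMOCOS column 3 or 4 (adjusted p 0.0574 to 0.0858), PGK1 without siMOCOS TG column 3 or 4 (adjusted p 0.0539 to 0.0667), ALDOA without siMOCOS TG column 1, 3 or 4 or siMOCOS column 3 or 4 (adjusted p 0.0663 to 0.129), ALDOC without siMOCOS TG column 1 or 3 or siMOCOS column 3 or 4 (adjusted p 0.0657 to 0.106) and BNIP3 without siMOCOS TG column 1, 3 or 4 or siMOCOS column 1, 2 or 4 (adjusted p 0.0526 to 0.106). In LNCaP ALDOC lost its call without siMOCOS TG column 2 or siMOCOS column 3 or 4 (adjusted p 0.0606 to 0.104), PFKFB4 without siMOCOS TG column 1 or 2 or siMOCOS column 3 or 4 (adjusted p 0.0571 to 0.0793) and BNIP3 without siMOCOS TG column 1 or 2 or siMOCOS column 1, 3 or 4 (adjusted p 0.0574 to 0.163).

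The interaction asks whether the knockdown effect differed with TG, and is positive where it was higher with TG than without. It was called for 0 of 31 members in each line with edgeR, DESeq2 and limma voom. In C4-2B 0.0283% of all genes were called higher and 0.0425% lower, and in LNCaP 0.00724% and 0%. Members with an unadjusted p under 0.05 in edgeR numbered 1 in C4-2B and 4 in LNCaP. The 1 in C4-2B was HK2, with an interaction of 0.87 ± 0.23 (adjusted p = 0.22). The 4 in LNCaP were HK2 (0.48 ± 0.16, adjusted p = 0.516), LDHA (0.40 ± 0.11, adjusted p = 0.284), ALDOC (0.57 ± 0.21, adjusted p = 0.577) and BNIP3 (0.36 ± 0.15, adjusted p = 0.683). The knockdown and TG comparisons of a line share libraries, so their calls are not independent of each other.

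Without TG or knockdown the lines differed at 11 members. In LNCaP 5 of 31 were higher than in C4-2B and 6 lower, where 21.1% of 14628 tested genes were higher and 20.1% lower. Neither of these counts was above the share of all tested genes. With RLE scaling in place of TMM the split was 4 higher and 10 lower, and with DESeq2 5 and 10. The shares of all genes called were not counted under these settings, so these splits are not read as a shift of the members. The members' median difference was -0.051, against 0.001 over all genes. ENO2 stood out: it was at 12.2, 14.1, 13.1 and 12.1 CPM in LNCaP and at 2.46, 2.50, 3.00 and 2.94 CPM in C4-2B (log2 difference 2.24 ± 0.28, adjusted p = 1.97e-07). HIF1A was at 291, 278, 273 and 363 CPM in LNCaP and at 178, 141, 157 and 144 CPM in C4-2B, without overlap (log2 difference 0.96 ± 0.14, adjusted p = 2.61e-06). On the log2 scale BNIP3 was higher in LNCaP by 0.80 ± 0.11 (adjusted p = 9.42e-07), PDK1 by 0.58 ± 0.22 (adjusted p = 0.0314) and ALDOC by 0.52 ± 0.21 (adjusted p = 0.0487). PFKFB2 was at 67.7, 66.4, 64.1 and 64.0 CPM in LNCaP and at 127, 159.9, 102 and 104 CPM in C4-2B (log2 difference -0.91 ± 0.15, adjusted p = 1.88e-05). The log2 difference, LNCaP minus C4-2B, was -0.56 ± 0.12 (adjusted p = 0.000528) for GPI, -0.47 ± 0.11 (adjusted p = 0.000586) for HK1, -0.43 ± 0.13 (adjusted p = 0.0104) for TPI1, -0.37 ± 0.10 (adjusted p = 0.00412) for ENO1 and -0.36 ± 0.10 (adjusted p = 0.00544) for LDHB. SLC2A1, HK2, GAPDH, PGK1, PKM and LDHA were not called, with differences of 0.16, -0.14, -0.36, -0.047, 0.16 and -0.073. ALDOC lost its call without C4-2B siCTRL replicate 1 or 2 or LNCaP siCTRL replicate 2 or 3 (adjusted p 0.112 to 0.207). With GC and length trends removed ENO1, PDK1 and TPI1 lost their calls (adjusted p = 0.0598, 0.23 and 0.073). PDK1 lost its call without C4-2B siCTRL replicate 2, 3 or 4 or LNCaP siCTRL replicate 1, 3 or 4 (adjusted p 0.0502 to 0.0801), and TPI1 without LNCaP siCTRL replicate 1 (adjusted p = 0.0521).

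Ratios between isozymes of the same step were compared within each library, on the log2(CPM + 0.5) scale. Only their change is read, since CPM is not corrected for gene length. Of 56 comparisons of 7 ratios, 21 reached 0.0286, the smallest two-sided exact permutation p that 4 against 4 libraries allow. Among the 21 was the SLC2A3 to SLC2A1 ratio with TG in LNCaP siCTRL and in LNCaP siMOCOS cells. These comparisons support nothing, since SLC2A3 passed the low-count filter in LNCaP only through its TG libraries. The smallest adjusted p was 0.0763, so none passed. Over 56 comparisons none could pass unless more of them reached 0.0286. That outcome thus says nothing about any single ratio. The HK2 to HK1 ratio differed with TG in siCTRL cells by -0.92 on the log2 scale in C4-2B and by -1.11 in LNCaP, with all TG libraries lower. The PFKP to PFKL ratio differed after knockdown by -1.501 in C4-2B and -1.07 in LNCaP, and with TG present by -1.20 and -0.89, with all siMOCOS libraries lower in each of the 4 comparisons. The LDHB to LDHA ratio was higher after knockdown in LNCaP by 0.37 without overlap, and by 0.42 in C4-2B with overlap.

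Genes around the members moved in both directions with TG. The lists below were drawn up with earlier results of these data known. Of 27 further hypoxia targets tested in C4-2B siCTRL cells 9 rose and 8 fell, and of 26 in LNCaP 11 rose and 9 fell, with list medians of 0.25 and -0.017 on the log2 scale. For this list and the next 4, the shares of all tested genes were 21.2% higher and 19.3% lower in C4-2B and 24.6% and 25.1% in LNCaP, with medians of -0.0091 and -0.038. VEGFA, which drives angiogenesis, stood at 89.9 ± 13.9 CPM in C4-2B siCTRL and rose to 435 ± 87.8 CPM (log2 fold change 2.27 ± 0.18, adjusted p = 1.03e-07). The VEGFA rise in LNCaP was from 81.9 ± 6.60 to 558 ± 33.4 CPM (log2 fold change 2.77 ± 0.11, adjusted p = 2.92e-12). BHLHE41, a circadian repressor, rose by 1.88 in C4-2B and 2.14 in LNCaP on the log2 scale, and TMEM45A by 1.84 in C4-2B. BHLHE40, a relative of BHLHE41, fell by 2.42 on the log2 scale in LNCaP. Of 11 further HIF pathway components 2 rose and 3 fell in C4-2B, and 1 rose and 3 fell in LNCaP, with medians of 0.034 and -0.022; the falls in both lines and the rises in C4-2B were near the all-gene shares. RBX1, a subunit of the ubiquitin ligase that marks HIF1A for degradation, had log2 fold changes of -1.20 and -1.43 in C4-2B and LNCaP. ARNT2, a partner of the HIF alpha subunits, fell in C4-2B (log2 fold change -0.82 ± 0.21, adjusted p = 0.00552), and CUL2, the scaffold of that ligase, in LNCaP (log2 fold change -0.78 ± 0.14, adjusted p = 0.000213). The coactivator CREBBP rose in LNCaP (log2 fold change 0.88 ± 0.12, adjusted p = 8.7e-06). EPAS1, the HIF-2 alpha subunit, rose in C4-2B (log2 fold change 0.88 ± 0.33, adjusted p = 0.04), a call lost without siCTRL replicate 1, 2 or 3 or siCTRL TG replicate 2, 3 or 4 (adjusted p 0.0629 to 0.0939).

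Of the genes of pyruvate and lactate handling, 1 of 16 rose and 8 fell in C4-2B, and 3 of 15 rose and 5 fell in LNCaP, with medians of -0.34 and -0.20. PCK2, the mitochondrial PEP carboxykinase, rose by 1.31 in C4-2B and 1.42 in LNCaP on the log2 scale. PDK3, another pyruvate dehydrogenase kinase, had log2 fold changes of -1.03 and -1.32. The lactate exporter SLC16A3 fell in C4-2B (log2 fold change -2.93 ± 0.47, adjusted p = 9.37e-05) and the pyruvate dehydrogenase phosphatase PDP2 in LNCaP (log2 fold change -1.07 ± 0.13, adjusted p = 3.7e-06).

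Of the pentose phosphate and glycogen genes, 1 of 16 rose and 7 fell in C4-2B, and 3 rose and 3 fell in LNCaP, with medians of -0.28 and -0.16; neither LNCaP count was above the share of all tested genes. PGM2 rose by 1.18 and 1.14 on the log2 scale. Transketolase (TKT) had log2 fold changes of -0.71 and -0.49, and lost its call without siCTRL replicate 4 (adjusted p = 0.0603) in C4-2B and without siCTRL replicate 2 or siCTRL TG replicate 1, 3 or 4 (adjusted p 0.053 to 0.0641) in LNCaP. TALDO1, the transaldolase, fell in C4-2B (log2 fold change -0.67 ± 0.21, adjusted p = 0.0161), a call lost without siCTRL replicate 4 or siCTRL TG replicate 3 (adjusted p 0.0533 to 0.0704). Glycogen synthase GYS1 fell in LNCaP (log2 fold change -0.88 ± 0.14, adjusted p = 5.59e-05). Of 12 further isozymes, transporters and regulators tested, 2 rose and 4 fell in C4-2B and 2 rose and 3 fell in LNCaP, with medians of -0.24 and -0.021. The glucose transporter SLC2A12 had log2 fold changes of -1.99 and -2.08. SLC2A6, a lysosomal hexose transporter, rose in LNCaP (log2 fold change 1.30 ± 0.21, adjusted p = 5.29e-05), and the muscle enolase ENO3 in C4-2B (log2 fold change 0.94 ± 0.27, adjusted p = 0.00923). HKDC1, a hexokinase-like gene, was at 0 to 0.0718 CPM in C4-2B siCTRL and 0.644 to 1.17 CPM with TG, and at 0 to 0.0563 and 0.801 to 1.77 CPM in LNCaP. Its levels without TG lay below 0.11 CPM, the lowest floor of 3 counts per library. The HKDC1 calls, and its place among the 2 rises of each line, thus support nothing.

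Knockdown without TG changed fewer of these genes. Of the 27 further hypoxia targets in C4-2B 2 rose and 7 fell, and of the 26 in LNCaP 3 rose and 2 fell, with medians of -0.097 and -0.11. Of all tested genes 9.09% rose and 8.14% fell in C4-2B, and 6% and 9.73% in LNCaP, with medians of 0.0028 and -0.022, so the rises in C4-2B and the falls in LNCaP were near the all-gene shares. PLOD2, a collagen lysyl hydroxylase, fell in C4-2B (log2 fold change -1.90 ± 0.56, adjusted p = 0.0257), a call lost without siCTRL replicate 3 or siMOCOS column 1 or 4 (adjusted p 0.0674 to 0.174). ZNF395 fell in C4-2B (log2 fold change -1.10 ± 0.35, adjusted p = 0.039) and TMEM45A rose (log2 fold change 0.79 ± 0.24, adjusted p = 0.0315). ZNF395 lost its call without siCTRL replicate 1, 2, 3 or 4 or siMOCOS column 1 or 2 (adjusted p 0.0564 to 0.12), and TMEM45A without siCTRL replicate 1, 3 or 4 or siMOCOS column 3 or 4 (adjusted p 0.0519 to 0.104). In LNCaP BHLHE40 fell (log2 fold change -0.68 ± 0.14, adjusted p = 0.00369), and the ephrin EFNA1 (log2 fold change 0.52 ± 0.12, adjusted p = 0.00574) and the histone demethylase KDM4B (log2 fold change 0.45 ± 0.14, adjusted p = 0.0347) rose. KDM4B lost its call without siCTRL replicate 1 or 4 or siMOCOS column 2, 3 or 4 (adjusted p 0.0712 to 0.104).

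DLAT, a subunit of pyruvate dehydrogenase, fell in C4-2B (log2 fold change -0.65 ± 0.14, adjusted p = 0.00313) and in LNCaP (log2 fold change -0.46 ± 0.10, adjusted p = 0.0054), where it was not called with GC and length trends removed (adjusted p = 0.0559). It was the 1 call among the tested genes of pyruvate and lactate handling, 16 in C4-2B and 15 in LNCaP. That was below the 8.14% and 9.73% of all tested genes that fell. EPAS1 rose in C4-2B (log2 fold change 1.71 ± 0.33, adjusted p = 0.00132), the 1 call among the 11 further HIF pathway components there. That was near the 9.09% of all tested genes that rose. ENO3 rose in C4-2B (log2 fold change 0.83 ± 0.27, adjusted p = 0.039), a call lost without siCTRL replicate 1, 2, 3 or 4 or siMOCOS column 3 or 4 (adjusted p 0.0591 to 0.124). Of the 12 further isozymes, transporters and regulators it was the 1 call in C4-2B, again near the all-gene share. In LNCaP SLC2A6 (log2 fold change 1.03 ± 0.21, adjusted p = 0.00341) and LDHD, a D-lactate dehydrogenase (log2 fold change 0.56 ± 0.14, adjusted p = 0.0132), rose. They were the 2 calls among the same 12 genes in LNCaP, where 6% of all tested genes rose. The pentose phosphate isomerase RPIA (log2 fold change -0.60 ± 0.18, adjusted p = 0.0351) and the glycogen phosphorylase PYGL (log2 fold change -0.84 ± 0.26, adjusted p = 0.0344) fell there. They were the 2 calls among 16 pentose phosphate and glycogen genes in LNCaP, near the 9.73% of all tested genes that fell. In C4-2B 0 of the 16 were called. RPIA lost its call without siCTRL replicate 2 or 4 or siMOCOS column 1 or 2 (adjusted p 0.0656 to 0.121), and PYGL without siCTRL replicate 1, 3 or 4 or siMOCOS column 2, 3 or 4 (adjusted p 0.0545 to 0.103).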

How the data were processed

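The deposited table holds expected counts per gene (estimated counts, length-scaled per the file name) that the authors made from 32 polyA libraries. The annotation is not stated. Tools listed in the submitters' processing notes, with no order, were STAR 2.6.1d, Salmon 1.5.2, FastQC 0.11.9, Trim Galore 0.6.7 and cutadapt 3.4, and the build was hg38. Values were rounded (100% of those above 0 were not whole); 0 value columns were left out and 0 columns were identical. Totals of 7507154 to 27088375 counts set the precision.

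Each line was fitted with edgeR 4.0.16 (R 4.3.3): filterByExpr by group, TMM, quasi-likelihood F-test, 12 residual degrees of freedom, Benjamini-Hochberg over 14127 genes (C4-2B) or 13806 (LNCaP). A joint fit of the 32 libraries (14628 genes, residual degrees of freedom 24) compared the lines. A gene was called (rose or fell) at an adjusted p under 0.05. CPM is on 1 TMM scale over the 32 libraries. Dividing the size of the log2 change by the root of F gave its SE. P-values measure the spread between these libraries and treat libraries of 2 siRNAs as replicates.

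Alternatives were DESeq2 1.42.0, limma 3.58.1 voom, RLE factors, 2 other filters, removal of GC and length trends (known for 89.1% of tested genes), a joint fit, the siCTRL libraries alone with and without a replicate block, each library left out, other pseudocounts and, chosen after seeing the data, leaving out 3 libraries that stand apart.

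The members and the lists were chosen with earlier results of these data known. Genes named by rule were HIF1A, SLC2A1, HK2, GAPDH, PGK1, PKM, LDHA and PDK1, up to 6 called rises and 6 falls of greatest size per comparison, MOCOS and HSPA5 as checks, and up to 3 called genes of each further list. Other members were named to complete the account, after their values were seen. Promoter sequences come from RefSeq.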

Additional observations from a re-analysis of the deposited data

Results flagged for a closer look

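In 12 of 247 pairs of member and group, 1 of the 4 libraries stood far from the other 3 by Dixon's ratio of gap to range, at its 95% critical value. Chance flags about 1 in 20 such pairs, and 12 of 247 is close to that share. In C4-2B siCTRL replicate 1, ENO1 was at 1194 CPM against 1502 to 1564 CPM in the others, and GPI at 486 CPM against 670 to 701 CPM. This library is among the 3 that stand apart by GC content or length. So is C4-2B siCTRL TG replicate 3, where EGLN1 was at 72.0 CPM against 55.0 to 56.5 CPM and HK1 at 417 CPM against 346 to 353 CPM. In the same group replicate 4 had EGLN3 at 1.85 CPM against 3.22 to 3.44 CPM and SLC2A1 at 10.7 CPM against 8.99 to 9.17 CPM, and replicate 1 had HIF1A at 211 CPM against 187 to 191 CPM. In C4-2B siMOCOS column 3, PKM was at 1828 CPM against 1451 to 1503 CPM.

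In LNCaP siCTRL, GAPDH was at 1149 CPM in replicate 1 against 1737 to 1752 CPM, and LDHB at 647 CPM in replicate 4 against 778 to 786 CPM. In LNCaP siCTRL with TG, replicate 2 had ENO1 at 808 CPM against 739 to 750 CPM and PFKL at 37.6 CPM against 28.96 to 29.32 CPM.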

How the results depend on the processing

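Of 175 called pairs of gene and comparison, 125 kept the call under every alternative that tested them, 50 lost it under at least 1 and 0 reversed. In siCTRL cells TG called 19 to 24 members in C4-2B and 23 to 26 in LNCaP over all alternatives. In siMOCOS cells the TG count of 20 in C4-2B became 15 without the 3 libraries that stand apart and 14 to 21 with 1 left out. The TG count of 22 in LNCaP siMOCOS cells became 19 to 24 with 1 left out. Counts after knockdown were less stable. Without TG in C4-2B the count of 5 became 8 with DESeq2, 10 with GC and length trends removed, 10 in the joint fit of all 32 libraries, 8 without the 3 libraries that stand apart, and 4 to 8 with 1 library left out. With TG in C4-2B the count of 4 became 7 in the joint fit, 1 without the libraries that stand apart and 1 to 4 with 1 left out. Without TG in LNCaP the count of 6 became 3 with no filter, 3 in the joint fit and 3 to 10 with 1 left out. With TG in LNCaP the count of 4 became 1 with those trends removed, 1 in the joint fit and 1 to 6 with 1 left out. The cause was not tested. The shares of all genes called were not counted under the alternatives, so no member count in this section is read against other genes. Replicate numbers did not pair the siCTRL libraries: same-numbered libraries with and without TG correlated at -0.266 to 0.184 in their deviations, and not every library correlated best with its own number. With the replicate block, TG called 20 members in C4-2B (24 in the same libraries without the block), 26 in LNCaP (25 without), the lines differed at 15 without TG and at 0 in the TG response. Blocked fits of the siMOCOS groups were not run, since their column numbers are names only. No isozyme ratio passed with a pseudocount of 0.1 or 2 CPM, where 20 and 21 had an unadjusted p under 0.05. With 3 against 4 libraries, or 4 signed pairs, the exact test cannot go below 0.0571 or 0.125. CA9 and ADM, which did not pass the low-count filter, were tested with no filter and were not called there in the comparisons within a line.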

Other observations

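Within the siMOCOS groups many members, like many of all genes, differed between the columns numbered 1 and 2 and those numbered 3 and 4. This pattern was seen in the values and then counted, with no test. Over the 30 members with a mean of at least 1 CPM, 18 in C4-2B siMOCOS had columns 1 and 2 both below columns 3 and 4, and 11 had them both above. Of all 12851 genes at that level, 38.7% and 37% did so. In C4-2B with TG 11 members lay below and 11 above, where 32.3% and 28% of genes did. In LNCaP 20 members lay below and 3 above, where 27.9% and 30.6% of genes did, and with TG 13 and 7, where 34.7% and 34.9% did. Several of these counts were near the all-gene shares: the 11 above in C4-2B without TG and both counts in C4-2B with TG. The 3 and the 7 above in LNCaP were below their shares. In LNCaP without TG the members below included SLC2A1, HK2, PFKP, PFKFB3, GAPDH and P4HA1, and those above were HIF1A, EGLN3 and CA12. The deviations of C4-2B siMOCOS columns 1 and 2 from the group mean correlated with GC content across genes at -0.331 and -0.212, and those of columns 3 and 4 at 0.297 and 0.236. In the other groups these correlations did not follow the same split: for columns 1 to 4 they were -0.066, 0.397, -0.449 and 0.14 in C4-2B with TG. They were -0.295, 0.0818, 0.233 and -0.0146 in LNCaP, and 0.292, 0.0755, -0.254 and -0.0998 in LNCaP with TG, where columns 1 and 2 were the higher ones. The part of the siRNA in the pattern was not tested.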
